A study of Mus musculus with 6 samples.

Results

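The cells described here are C1q and Pf4 macrophages, 100 of the 38208 lung cells that passed the filters in 6 single-cell RNA-seq libraries. A cell was a member when at least 3 of *C1qa*, *C1qb*, *C1qc*, *Pf4*, and *Mrc1* had a UMI (unique molecular identifier, which counts captured RNA molecules), at least 1 of these was a C1q gene, at least 1 of *Tyrobp*, *Fcer1g*, and *Csf1r* was detected, and at most 1 of 5 endothelial genes was (*Pecam1*, *Cdh5*, *Cldn5*, *Tie1*, and *Egfl7*). The members were thus selected on the measured UMIs of these genes, whose levels are given below as a description. The libraries came from TNF-Tg mice, a line that overexpresses TNF from a transgene, and from their WT littermates, and each genotype had 1 library from mice aged 8 weeks, 1 from 14 weeks, and 1 from 20 weeks. Every library was made from pooled lungs of several female mice, after sorting for viable cells that were negative for the pan-leukocyte protein CD45 and the epithelial protein CD326 (7-AAD-/CD45-/CD326-). The pools do not separate single mice, and no genotype has a replicate library at any age. By its sort the study was of non-immune cells, so any macrophage in the files had passed a gate against its own surface protein.

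C1q is the recognition protein that starts the classical complement pathway, and its A, B, and C chains are made chiefly by tissue macrophages. *Pf4* encodes platelet factor 4 (CXCL4), a chemokine of platelets and of some macrophages, and *Mrc1* encodes the mannose receptor CD206. The lung holds alveolar macrophages in the airspace and interstitial macrophages in the tissue around vessels and airways. Interstitial macrophages are known for C1q expression and are often divided into cells with *Lyve1* and *Folr2* and cells with high MHC class II and *Cx3cr1*.

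C1q and Pf4 macrophages were found in TNF-Tg libraries only, and 87 of the 100 were in the library of 20 weeks. There were 4 members among 6604 cells at 8 weeks (0.0606%, exact 95% interval 0.0165% to 0.155%), 9 among 5817 cells at 14 weeks (0.155%, 0.0708% to 0.294%), and 87 among 6345 cells at 20 weeks (1.37%, 1.10% to 1.69%). None was found among 6430, 6051, and 6961 WT cells of the same ages, counts of 0 that allow shares of up to 0.0467%, 0.0496%, and 0.0431% when 3 cells are allowed. The upper limits of the exact 95% intervals for the same counts were 0.0574%, 0.0609%, and 0.0530%. The intervals of 14 and 20 weeks do not overlap, whereas those of 8 and 14 weeks do, and all of them cover counting error only. The mean share was 0.529% ± 0.731 (SD, n = 3 libraries) in TNF-Tg mice and 0 in WT mice. Every TNF-Tg library lay above every WT library, with p = 0.1 in a two-sided exact permutation test over libraries, the smallest p that 3 against 3 libraries can give. The members were chosen with earlier results of these data known, so this order and its p are a description and no independent support. Without the TNF-Tg library of 20 weeks the mean share was 0.108%.

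**Figure D1:**
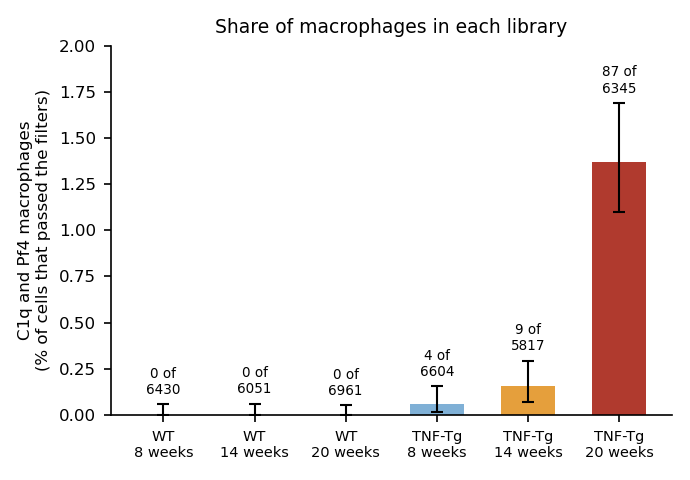
Share of C1q and Pf4 macrophages among cells that passed the filters (y axis, percent) in each of the 6 libraries (x axis), with exact 95% binomial intervals as error bars and the counts of cells above them. The 3 WT libraries are at 0, and the TNF-Tg libraries reach 0.0606%, 0.155%, and 1.37% at 8, 14, and 20 weeks.

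The rule genes were also summed over whole libraries, as a description, since they had chosen the cells. Over all cells that passed the filters, the C1q genes had 1, 1, and 2 UMIs in the WT libraries of 8, 14, and 20 weeks, whereas TNF-Tg libraries had 491, 1741, and 21020. Of these, 441, 1384, and 18218 UMIs lay in the macrophages. *Pf4* and *Mrc1* were not limited to TNF-Tg libraries. By age, the library level of *Pf4* was 4.44, 5.57, and 5.72 CPM (UMIs of a gene per 1000000 UMIs) for WT, whereas it was 8.87, 13.5, and 43.3 CPM for TNF-Tg mice. That of *Mrc1* was 1.25, 2.26, and 4.82 CPM for WT against 1.47, 2.69, and 8.78 CPM for TNF-Tg mice, so that the WT library of 20 weeks lay above the TNF-Tg libraries of 8 and 14 weeks. TNF-Tg cells held more UMIs, with medians per cell of 9179 to 9808 against 4455 to 4766 in WT. When every barcode was thinned to 1000 UMIs before the rule was applied, 3, 8, and 76 macrophages remained in the TNF-Tg libraries by age and 0 in each WT library. Other cells with myeloid genes were also more numerous in the TNF-Tg libraries. Cells with at least 2 of *Tyrobp*, *Fcer1g*, and *Csf1r*, no C1q UMI, and at most 1 endothelial gene (C1q-negative cells below) numbered 3, 2, and 7 in WT and 9, 22, and 226 in TNF-Tg by age. Whether the sort let through a different fraction of CD45+ cells in each library cannot be told apart from a change in the lung.

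Because WT libraries held no member, the genes of these macrophages could not be compared between genotypes, and no test of single genes is given. The UMIs of all members of a library were summed instead and are given as CPM of that sum. The sums held 25269 UMIs at 8 weeks, 84663 at 14 weeks, and 1162580 at 20 weeks. Levels at 8 and 14 weeks thus rest on a few cells, and most of what follows describes the library of 20 weeks. The median macrophage of 20 weeks had 13455 UMIs and 3038 genes. No barcode of a member recurred in another library, although 150 barcode sequences of cells that passed the filters were found in more than 1 library.

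The rule genes were detected far beyond the minimum in most members. *C1qc* had a UMI in all 100 cells, *C1qb* in 99, and *C1qa* in 98, and all C1q genes were found together in 97. *Pf4* had a UMI in 84 cells and *Mrc1* in 64, and 58 cells held all 5 markers. Over the 87 cells of 20 weeks, the C1q genes together made up between 140 and 36364 CPM of a cell, with a median of 17093. *C1qa* stood at 7193 CPM in the 20-week sum, at 7595 at 14 weeks, and at 7757 at 8 weeks. *C1qb* followed with 5402, 5433, and 5659 CPM and *C1qc* with 3076, 3319, and 4037 CPM in the same order of libraries. *Pf4* was at 1203, 1205, and 1227 CPM. *Mrc1* was at 318, 520, and 435 CPM. Because these genes chose the cells, their levels at the 3 ages are not compared. *Lyz2*, which the rule did not use, was at 33865, 29942, and 15236 CPM.

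*C1qa*, *C1qb*, and *C1qc* are neighbours on the minus strand of chromosome 4, within 18675 bases of GRCm38 (136880129 to 136898803, GENCODE vM21). *Pf4* lies on the plus strand of chromosome 5 (90772435 to 90773383) and *Mrc1* on the plus strand of chromosome 2 (14229392 to 14332057). Across the 87 cells of 20 weeks the C1q genes varied together. Pearson's r of log-scaled levels was 0.86 for *C1qa* with *C1qb*, 0.91 for *C1qa* with *C1qc*, and 0.87 for *C1qb* with *C1qc*, while it was 0.38 for *C1qa* with *Pf4* and 0.30 for *C1qa* with *Mrc1*. These genes chose the cells, so the values are a description only. *Pf4* and *Mrc1* also had fewer UMIs, with medians of 9 and 2 per cell against 93, 69, and 33 for *C1qa*, *C1qb*, and *C1qc*. The cells share 1 library and differ in depth, and in the 77 cells of at least 5000 UMIs the C1q values were 0.94, 0.92, and 0.91. The sequences just upstream of a pair of the neighbouring C1q genes and of *Pf4* are shown because these genes marked the cells together. They are RefSeq windows of up to 250 bases before the gene start (GRCm38.p6), written 5′ to 3′ on the gene's strand, with bases inside the GENCODE gene left out. Capitals mark GAGGAA on either strand (TTCCTC on the other), a core that ETS factors such as PU.1 (*Spi1*) can bind.
C1qb, minus strand, chr4:136886201-136886450: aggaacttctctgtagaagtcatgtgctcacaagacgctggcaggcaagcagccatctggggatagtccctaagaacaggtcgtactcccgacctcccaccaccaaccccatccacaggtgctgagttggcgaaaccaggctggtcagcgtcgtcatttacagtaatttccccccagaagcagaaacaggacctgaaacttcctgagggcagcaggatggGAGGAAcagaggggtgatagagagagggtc
C1qc, minus strand, chr4:136893066-136893164: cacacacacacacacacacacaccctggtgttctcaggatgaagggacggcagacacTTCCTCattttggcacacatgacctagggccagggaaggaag
Pf4, plus strand, chr5:90772185-90772434: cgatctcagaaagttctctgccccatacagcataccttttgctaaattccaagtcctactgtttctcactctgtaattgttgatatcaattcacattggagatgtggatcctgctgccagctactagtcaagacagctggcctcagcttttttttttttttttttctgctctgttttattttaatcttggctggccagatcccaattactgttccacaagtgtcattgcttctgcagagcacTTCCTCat
Each of the 3 windows held GAGGAA once. In all, 23.3% of the 32851 RefSeq promoter windows of 250 bases held it on either strand, so that a match describes the window and shows no binding.

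The label was checked on genes that the rule did not use, chiefly in the 87 cells of 20 weeks. *Lyz2* (lysozyme) had a UMI in all 87 cells of 20 weeks and *Cd68* (a lysosomal macrophage protein) in 81. Neither gene sets the members apart, since 191 of the 226 C1q-negative cells of that library also had a *Lyz2* UMI. *Cd68* was just 1.40-fold above the C1q-negative cells with a *Csf1r* UMI. *Adgre1*, which encodes F4/80, had one in 75 cells, at 368 CPM against 73.2 CPM in the C1q-negative cells of the same library. *Aif1*, which encodes the macrophage protein IBA1, was at 1133 CPM against 61.2. *Ptprc*, which encodes CD45, was detected in 73 of the 87 cells and stood at 260 CPM against 1210 CPM in the C1q-negative cells. Of 12 general macrophage genes outside the rule with at least 50 CPM in either sum, 6 were at least 4-fold higher and 1 was lower. Over all genes compared these shares were 3.86% and 6.58%. *Itgam* and *Laptm5* of that list stood below the C1q-negative cells with a *Csf1r* UMI, at ratios of 0.54 and 0.60. The members of 8 and 14 weeks all had a *Lyz2* UMI. *Adgre1* and *Ptprc* were each detected in 3 of the 4 and in 5 of the 9, and *Cd68* in 2 and 6. Endothelial cells, which should lack these genes, were taken as cells with at least 3 of the 5 endothelial genes and no UMI of *Tyrobp*, *Fcer1g*, *Csf1r*, or *Ptprc*. In 3820 such cells of the same library 18.8% had a *Lyz2* UMI and 3.14% had a *C1qa* UMI, at a median of 9665 UMIs per cell. These shares give a background whose source, such as free RNA or doublets, was not tested. They may be low because cells with any of those myeloid UMIs were left out of the set. The platelet genes *Itga2b*, *Gp9*, and *Gp1bb*, which would accompany *Pf4* in platelets, were at 0 UMIs in all 87 cells, while *Ppbp*, a platelet chemokine, had 7 UMIs in 2 cells (6.02 CPM, against 1.09 CPM in C1q-negative cells). Also at 0 were the T-cell genes *Cd3d*, *Cd3e*, and *Cd8a* and the B-cell genes *Cd79a* and *Ms4a1*. The other 4 of the 7 genes on the T-cell list (*Cd4*, *Trac*, *Cd3g*, and *Trbc2*) had UMIs. The list summed to 216 CPM, of which *Cd4* made up 212. The natural killer cell genes *Nkg7* and *Ncr1* were also at 0, while *Prf1* of that list had 1 UMI.

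Some members carried RNA of other lineages. At least 2 genes of a list for another cell type were detected in 30 of the 87 cells, 19 of which met this through the B-cell list, where the sums held *Ighm* (144 CPM), *Cd79b* (25.8 CPM), and *Jchain* (14.6 CPM). A single cell held 96.4% of the *Dcn* UMIs and 96.5% of the *Acta2* UMIs, genes of fibroblasts and of smooth muscle. The erythroid list had 55.0 CPM against 522 CPM in endothelial cells. Scrublet, a caller of doublets, gave a high score to 6 members, all of 20 weeks. At 8 weeks 2 of the 4 members, and at 14 weeks 4 of the 9, held at least 2 genes of another cell type's list. A cell of 14 weeks with 15051 of the 84663 UMIs of its sum had 4, 2, and 2 UMIs of *C1qa*, *C1qb*, and *C1qc*. That cell had 1 *Tyrobp* UMI and none of *Csf1r*, *Ptprc*, or *Adgre1*. Without the 30 cells, *C1qa* was at 6023 CPM and *Apoe* at 17779 CPM. Of 37 gene levels followed, 28 moved by less than 1.5 times without these 30 cells, without the 6 cells, without the cells with an endothelial gene, and without the largest cell, and those that moved are given below.

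Cells just inside and just outside the rule are given as a description. In the library of 20 weeks, 12 members with 3 markers had a C1q sum of 5764 CPM and 51 members with all 5 had 18626 CPM. The 6 cells with only 2 markers, which were left out, had 112 CPM of C1q and 2101 CPM of *Pf4*. The 22 members with 1 endothelial gene had 73.0 CPM over the 5 endothelial genes. The 11 cells left out for 2 or more endothelial genes had 2296 CPM of them beside 8954 CPM of C1q, at a median of 22901 UMIs.

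The closest cells in the library of 20 weeks were the 226 C1q-negative cells, which were a mixture. Of these, 176 had a *Csf1r* UMI, 42 *Ly6c2* (a classical monocyte gene), 24 *S100a8* (a neutrophil gene), and 19 *Nkg7*, and their median was 5784 UMIs. Among 3159 genes with at least 50 CPM in either sum, 122 (3.86%) were at least 4-fold higher in the macrophages and 208 (6.58%) at least 4-fold lower, including the rule genes, and the median log2 ratio over all of them was -0.17. This is a comparison of sums within 1 library, with no replicate and no test, and intervals of ratios cover counting error only. Leaving aside the rule genes, 117 genes were at least 4-fold higher, of which 112 had at least 3 UMIs in the library of 14 weeks, and 105 of these were higher there too (9 macrophages against 22 C1q-negative cells). Of all genes compared, 1289 of 3113 were higher in the macrophages at 14 weeks.

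**Figure D2:**
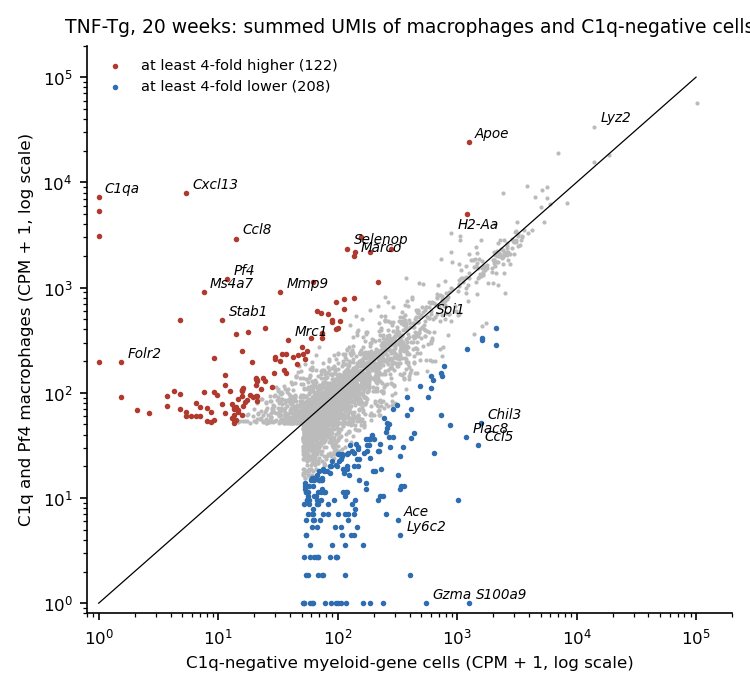
Summed levels of 3159 genes in the 87 macrophages (y axis) and the 226 C1q-negative cells (x axis) of the TNF-Tg library of 20 weeks, both as CPM + 1 on a log scale, with the line of equal levels. Red points are at least 4-fold higher in macrophages (122 genes, with the 5 marker genes of the rule among them) and blue points at least 4-fold lower (208 genes). *Cxcl13*, *Ccl8*, *Ms4a7*, and *Folr2* stand far above the line, and *S100a9*, *Gzma*, and *Ly6c2* far below it. The place of the C1q genes was fixed by the rule, since the C1q-negative cells had no C1q UMI.

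Chemokine genes held the highest ratio outside the rule genes. Of 15 chemokine genes compared, 6 were at least 4-fold higher, with *Pf4* of the rule among them, and 5 were at least 4-fold lower (median log2 ratio -0.62). *Cxcl13*, the chemokine that draws B cells into lymphoid follicles, was at 7969 CPM against 4.37 CPM in C1q-negative cells, a ratio of 1823 (925 to 4225). It was not a trait of every cell: 50 of the 87 cells had a *Cxcl13* UMI, with a median of 333 and a highest value of 47234 CPM. The 87 cells held 47.5% of all *Cxcl13* UMIs of their library, and the rest lay in other barcodes. At 14 weeks *Cxcl13* was at 15119 CPM over 9 cells, and at 8 weeks it was at 1860 CPM, where 1 of 4 cells held all of it (47 UMIs).

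*Ccl8* and *Ccl12*, monocyte-attracting chemokines, were at 2916 and 360 CPM in the macrophages of 20 weeks and both at 13.1 CPM in C1q-negative cells, ratios of 222 (149 to 348) and 27.5 (18.2 to 43.4). The macrophages held 80.1% and 83.1% of the UMIs of these genes in the library. *Ccl8* had a UMI in 55 of 87 cells. Without the 30 cells that carried genes of another lineage, *Ccl8* was at 1518 CPM and *Ccl12* at 183 CPM. The macrophages held only 1.59% of the *Ccl7* UMIs of the library. *Ccl7* was at 90.3 CPM in 24 cells, of which 1 cell held 33.3%, and at 34.7 CPM without those 30 cells. *Ccl2*, the ligand of CCR2, was at 92.9 CPM at 20 weeks, 602 at 14 weeks, and 0 at 8 weeks, against 43.2 CPM in C1q-negative cells and 65.8 CPM in endothelial cells. *Cxcl16* was at 471 CPM in 81 cells, 5.36-fold above C1q-negative cells.

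Among the lower chemokine genes, *Ccl5* was at 31.0 CPM against 1489 CPM and *Ccl6* at 144 against 749 CPM. Against only those 176 C1q-negative cells that had a *Csf1r* UMI, 129 (4.05%) of 3189 genes were at least 4-fold higher and 213 (6.68%) at least 4-fold lower. *Ccl5* stood at 36.7 CPM in these comparison cells, and of 11 chemokine genes compared with them 6 were at least 4-fold higher and none lower. *Cx3cr1*, the fractalkine receptor, was alike in both, with 471 CPM in macrophages and 465 CPM in C1q-negative cells. *Ccr2*, the receptor of inflammatory monocytes, was at 122 against 277 CPM and was detected in 17 of the 87 macrophages. It was at 0 in the 13 members of 8 and 14 weeks.

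Complement genes outside C1q were less set apart. Of 15 complement genes compared, 6 were at least 4-fold higher and none lower, and 3 of the 6 were the C1q genes that chose the cells. The others were *Cfp* (properdin, which stabilises the alternative convertase; 630 against 113 CPM), *C3ar1* (the receptor of the C3a fragment; 148 against 10.4 CPM), and *Cd55* (an inhibitor of the convertases; 136 against 19.7 CPM). *C3*, the central component of the cascade, was at 1745 CPM against 912 CPM, below 4-fold. *C2*, which follows C1q in the classical pathway, was at 12.9 against 10.4 CPM, and *C1ra* and *C1s1*, the proteases of the C1 complex, were at 14.6 and 16.3 CPM against 24.6 and 50.3 CPM.

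Among the lists of gene functions, uptake receptors had the most genes at least 4-fold higher. Of 18 compared, 9 were higher, *Mrc1* of the rule included, and 1 was lower, *Fcgr4* with 6.02 against 81.4 CPM. The median log2 ratio of the list was 2.14. *Folr2*, the folate receptor of resident macrophages, was at 194 CPM in 45 cells, against a single UMI in C1q-negative cells, a ratio of 356 whose counting interval runs from 63.2 to 14116. *Stab1*, a scavenger receptor, was at 493 CPM against 9.83 CPM, a ratio of 50.1 (31.4 to 85.2), and at 293 CPM without the 30 cells with genes of another lineage. *Marco*, a scavenger receptor best known from alveolar macrophages, was at 1978 CPM against 137 CPM. Just 44 of the 87 cells had a *Marco* UMI, and 1 cell held 27.8% of them. *Marco* was at 1110 CPM at 14 weeks and at 0 in the 4 cells of 8 weeks.

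The other genes of the alveolar list were low or at 0. *Siglecf*, *Ear1*, and *Plet1*, which mark alveolar macrophages, were at 0 in all 87 cells, and *Pparg* and *Car4* were each at 3.44 CPM. *Bhlhe41*, a transcription factor of alveolar macrophages, was at 18.9 CPM in 12 cells, against 16.4 CPM in C1q-negative cells. Of the 12 genes of the list, 9 had a UMI, and 16 of the 87 cells had at least 2 of them. *Chil3* was at 50.7 CPM against 1583 CPM, and 1 cell held 93.2% of its UMIs. Of the list for the *Lyve1* type of interstitial macrophage, 5 of 8 genes compared were at least 4-fold higher (*Folr2*, *Cd163*, *Stab1*, *Timd4*, and *Maf*) and none was lower. *F13a1* of this list was lower in the macrophages than in the C1q-negative cells with a *Csf1r* UMI, which had 257 CPM (ratio 0.29). *Lyve1* itself was at 9.46 CPM in 3 of 87 cells, below the 31.6 CPM of endothelial cells. It was at 14.4 CPM without the 30 cells with genes of another lineage and at 5.81 CPM without the cells with an endothelial gene. *Cd163*, the receptor of haemoglobin and haptoglobin, was found in 10 cells at 67.1 CPM, with 44.9% of its UMIs in 1 cell. *Timd4*, which binds phosphatidylserine on dying cells, was found in 6 cells at 72.3 CPM, with 86.9% of its UMIs in that same cell. *Timd4* stood at 120 CPM without the 30 cells with genes of another lineage. The cell with most *Cd163* and *Timd4* UMIs also held 640 *Marco* UMIs, and no alternative of these levels left it out. Both genes are also counted among the uptake receptors at least 4-fold higher, and *Cd163* among the iron and heme genes below. *Retnla*, a gene of alternatively activated macrophages, was at 194 CPM in only 2 cells, and at 325 CPM without those 30 cells.

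**Figure D3:**
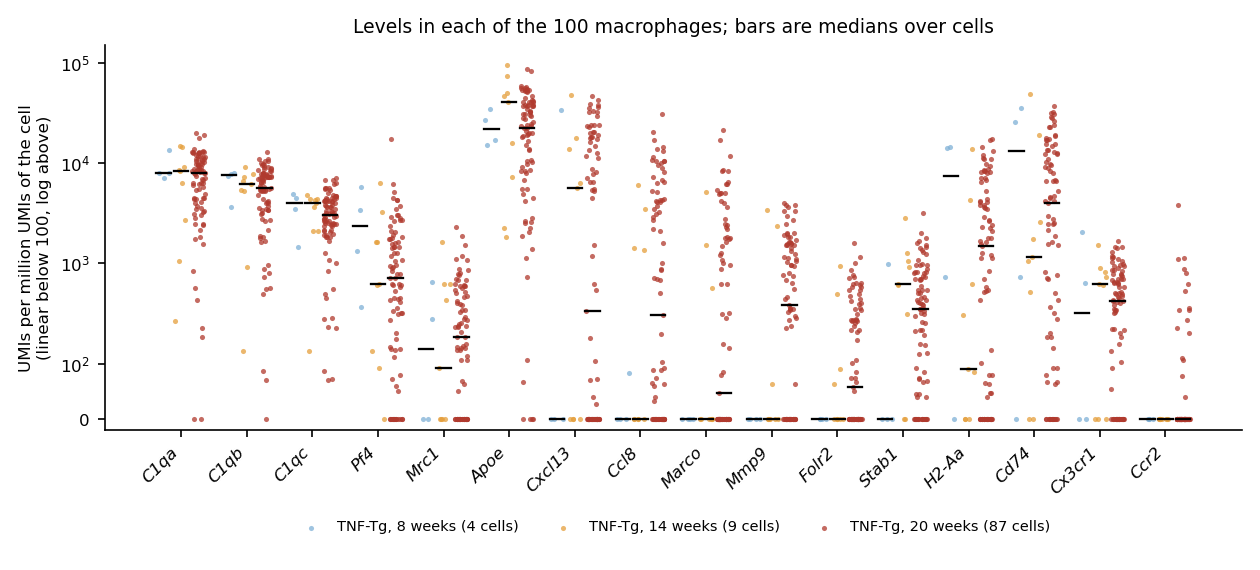
Levels of 16 genes in each of the 100 macrophages (points; y axis, CPM within the cell, linear below 100 and log above), by age of the TNF-Tg library, with black bars for medians over the 4, 9, and 87 cells. Among the cells of 20 weeks *C1qa* runs from 0 to 19873 CPM with a median of 7992, and *Cxcl13* from 0 to 47234 CPM with a median of 333.

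MHC class II genes, which present antigen to CD4+ T cells, were high and uneven. *Cd74*, the invariant chain, was at 7874 CPM against 2399 CPM in C1q-negative cells, and *H2-Aa*, an MHC class II alpha chain, at 3318 against 893 CPM. Of 8 genes of the list compared, 1 was past 4-fold, *Cd86* (a costimulatory ligand) with 86.0 against 13.7 CPM. Against the C1q-negative cells with a *Csf1r* UMI, 5 of 8 were, with *H2-Aa* 5.18-fold higher. Of the list for the MHC class II type of interstitial macrophage, 1 of 9 genes compared was at least 4-fold higher and none was lower. Against the cells with a *Csf1r* UMI, 5 of 9 were higher and none was at least 4-fold lower. *Ccr2*, *Itgax*, and *Mmp12* of that list stood below those cells, at ratios of 0.44, 0.43, and 0.35. *H2-Aa* ranged from 0 to 17402 CPM among the 87 cells, with a median of 1491, and 23 cells had none. At 8 weeks 2 of the 4 cells held 330 of the 331 *H2-Aa* UMIs, and at 14 weeks 1 of the 9 cells held 152 of 176. Of 9 MHC class I genes none was past 4-fold. *B2m*, for example, was at 3380 against 3061 CPM.

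*Marco* and MHC class II genes tended to be high in different macrophages, although some cells were high in both. Over the 87 cells, r of log-scaled levels was 0.97 for *H2-Aa* with *Cd74*, -0.39 for *Marco* with *H2-Aa*, -0.49 for *Marco* with *Cx3cr1*, and 0.45 for *Marco* with *Cxcl13*. Among the 77 cells of at least 5000 UMIs these were 0.97, -0.34, -0.49, and 0.51. They are given without a test, since all cells come from 1 library and the pairs were picked after values had been seen. In these 77 cells, 36 had a *Marco* UMI and 41 did not, and 3 of the 36 had just 1 UMI. The median *H2-Aa* level was 523 CPM with *Marco* and 4082 without, and the median *Cx3cr1* level 200.2 and 583. The median *Cxcl13* level was 10489 with *Marco* and 0 without. Median UMIs per cell were close, with 14768.5 and 13718. The 2 patterns overlapped, since 26 of the 36 cells with *Marco* also had an *H2-Aa* UMI. Some were high in both: 1 cell had 2333 CPM of *Marco* and 11055 CPM of *H2-Aa*, and another had 4970 and 6529 CPM.

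**Figure D4:**
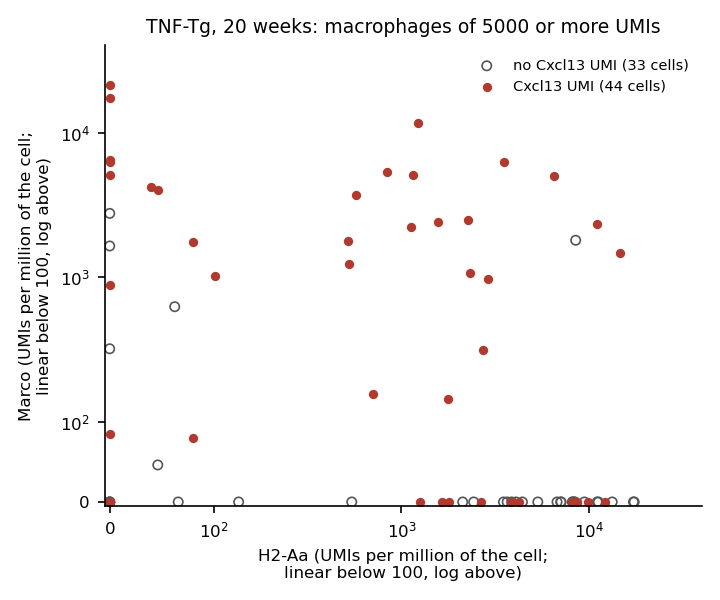
Each point is 1 of 77 macrophages of at least 5000 UMIs in the TNF-Tg library of 20 weeks, placed by its *H2-Aa* level (x axis) and its *Marco* level (y axis), both in CPM within the cell, linear below 100 and log above. Filled points had a *Cxcl13* UMI (44 cells) and open points had none (33 cells). Most open points lie at the foot of the plot, without *Marco*, and the filled points make up most of the cells with it.

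*Ccr2* marked a smaller set on the other side. Of the 77 cells, 17 had a *Ccr2* UMI, 4 of them just 1. Their median *H2-Aa* level was 7093 CPM against 978 in the 60 cells without *Ccr2*, and their median *C1qa* level was 4056 against 8543. *C1qa* helped to choose the cells, so its level is given as a description. A *C1qa* UMI was found in 15 of the 17, and the other 2 had just 1 UMI each of *C1qb* and *C1qc*. A *Cxcl13* UMI was found in 2 of the 17 and in 42 of the 60. *Folr2* had a UMI in 2 of the 17 and in 39 of the 60. *Apoe* was at a median of 10604 with *Ccr2* and 27778 without.

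Lipid and lysosome genes were detected throughout. All 26 genes of that list had at least 50 CPM, 4 were at least 4-fold higher, and none was lower, with a median log2 ratio of 0.89. *Apoe*, the lipid carrier apolipoprotein E, was at 24044 CPM against 1252 CPM, a ratio of 19.2, and had a UMI in 83 of 87 cells. It was at 35021 CPM at 14 weeks and 29641 CPM at 8 weeks. The macrophages, 1.37% of the cells, held 37.5% of the *Apoe* UMIs of the library of 20 weeks. *Abca1*, the cholesterol exporter, was at 233 against 33.3 CPM, *Lgmn* (legumain, a lysosomal protease) at 487 against 89.6 CPM, and *Cd63* (a lysosomal membrane protein) at 1139 against 215 CPM. *Selenop*, a secreted selenium carrier, was outside the lists and reached 2348 CPM against 120 CPM in 85 cells.

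Of 9 genes for iron and heme, 4 were at least 4-fold higher and none lower (median log2 ratio 1.45). *Blvrb*, which reduces biliverdin, was at 777 against 111 CPM and *Trf* (transferrin) at 415 against 101 CPM. *Hmox1*, which opens the heme ring, was at 531 against 231 CPM, and 1 cell held 39.7% of it. The ferritin chains *Fth1* and *Ftl1* were at 19201 and 9282 CPM against 7015 and 3846 CPM, both below 4-fold.

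TNF and NF-κB genes were not set apart. Of 22 compared, 1 was at least 4-fold higher (*Vcam1*, 67.1 against 13.7 CPM) and 1 lower (*Traf1*, 22.4 against 145 CPM), and the median log2 ratio was -0.03. The reads were mapped to a mouse genome, and the *Tnf* values are those of the mouse gene. *Tnf* was at 21.5 CPM in 15 of 87 cells, against 67.2 CPM in C1q-negative cells and 2.52 CPM in endothelial cells. The macrophages held 6.23% of the *Tnf* UMIs of the library. *Tnfrsf1a*, the broadly expressed TNF receptor, was at 110 against 109 CPM, and *Tnfrsf1b*, the receptor of immune cells, at 82.6 against 284 CPM. *Nfkbia*, an inhibitor of NF-κB that NF-κB itself induces, was at 497 against 633 CPM. Of 8 interferon-stimulated genes none was past 4-fold higher and 1 was lower, *Isg15* with 13.8 against 68.8 CPM.

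BMP signaling is named in the title of the study. Of 7 BMP and TGF-β genes compared with C1q-negative cells none was past 4-fold. *Bmp2* (a BMP ligand) was at 6.02 CPM and *Bmpr2* (a BMP receptor) at 28.4 CPM, against 39.9 and 568 CPM in endothelial cells. *Tgfb1*, the TGF-β ligand, was at 201 CPM against 224 CPM in C1q-negative cells. *Igf1* was the 1 gene past 4-fold higher among 8 cytokines and growth factors, with 248 against 14.8 CPM, and *Il1b* (18.1 against 232 CPM) and *Vegfa* (6.02 against 74.3 CPM) were lower.

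*Mmp9*, a gelatinase also known from neutrophils, was at 899 CPM against 32.2 CPM, a ratio of 27.9 (21.4 to 36.9), and had a UMI in 55 of 87 cells. The macrophages held 76.6% of the *Mmp9* UMIs of the library. *Mmp9* is itself on the neutrophil list of 8 genes, of which 5 (*S100a9*, *Retnlg*, *Cxcr2*, *Camp*, and *Ngp*) were at 0 in all 87 cells. *S100a8* was at 8.60 CPM in 5 cells and *Csf3r*, the receptor of G-CSF, at 35.3 CPM in 32 cells, against 1021 and 60.1 CPM in C1q-negative cells. At least 2 genes of the list were found in 27 of the 87 cells. *Mmp9* varied with *Cd4*, which was detected in 47 cells at 212 CPM with *Cd3d* and *Cd3e* at 0 (r = 0.59 over the 87 cells, and 0.54 over the 77 deeper ones). *Cd4* was at 140 CPM without the 30 cells with genes of another lineage, a set that itself counts *Cd4* as a T-cell gene. Of 12 matrix genes, 2 were at least 4-fold higher (*Mmp9* and *Mmp14*) and 5 lower, *Fn1* (fibronectin) among them with 109 against 604 CPM. *Igfbp7*, an endothelial gene, was at 259 CPM, but 70.8% of its UMIs lay in 1 cell, and it was at 41.0 CPM without the 6 cells with high Scrublet scores. *Saa3*, an acute-phase protein, was at 3019 CPM, with 30.8% in 1 cell, and the macrophages held just 3.31% of its UMIs in the library.

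Transcription factors of macrophages differed in both directions. *Maf*, linked to resident macrophages, was at 329 CPM, a ratio of 5.57. *Klf4* and *Klf2* were at least 4-fold lower, with 37.0 against 288 CPM and 145 against 606 CPM. *Spi1*, which encodes PU.1, was at 509 CPM against 585 CPM, and *Cebpb*, a factor of monocytes and granulocytes, was at 429 against 1620 CPM, a ratio of 0.26 just short of 4-fold.

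**Figure D5:**
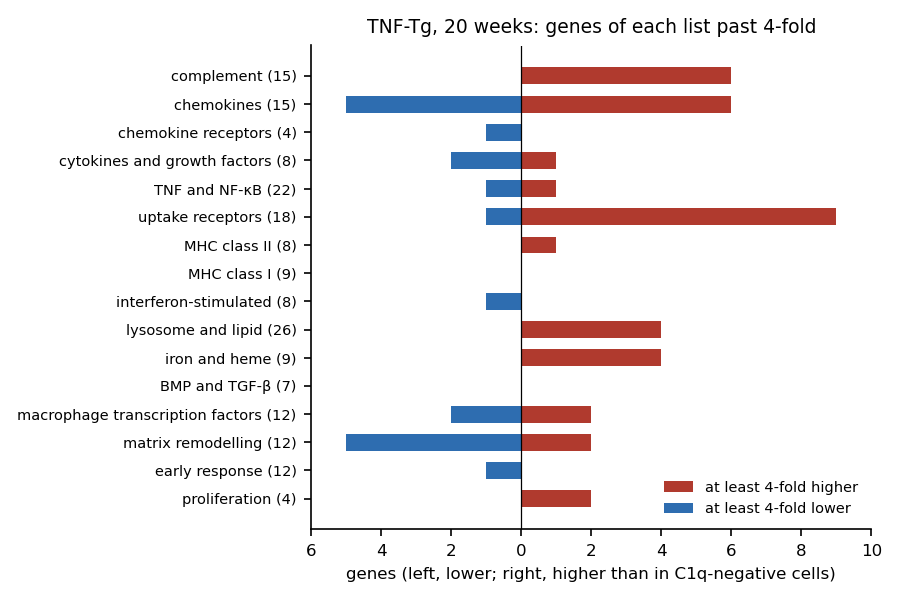
Number of genes in each list of gene functions, cell type lists not included (rows, with the number compared in parentheses), that were at least 4-fold higher (red, to the right) or lower (blue, to the left) in the 87 macrophages than in the 226 C1q-negative cells of the TNF-Tg library of 20 weeks. Among these lists uptake receptors have the longest red bar (9 of 18), and matrix and chemokine genes the longest blue bars (5 of 12 and 5 of 15).

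Monocyte genes were low in the macrophages. All 10 genes of the monocyte list were at least 4-fold lower in the macrophages than in the C1q-negative cells, against *Csf1r*-positive C1q-negative cells too. *Ly6c2*, a marker of classical monocytes, was at 3.44 against 331 CPM, *Plac8* at 36.9 against 1196 CPM, and *Ace*, known from patrolling monocytes, at 5.16 against 317 CPM. *S100a9*, a calprotectin chain, was at 0 against 1263 CPM, at least 489-fold lower when 3 UMIs are allowed in the sum. *Gzma*, a granzyme of cytotoxic lymphocytes, was at 0 against 551 CPM, at least 213-fold lower, but it was at 0 UMIs in the *Csf1r*-positive comparison cells as well.

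Shares of macrophages with a given gene depend on depth, so they were also taken after thinning each cell of 20 weeks to 1000 UMIs. *Marco* was then found in 39.1% (28.8% to 50.1%) of the 87 cells, *Cxcl13* in 48.3% (37.4% to 59.2%), *Mmp9* in 43.7% (33.1% to 54.7%), *Ccl8* in 44.8% (34.1% to 55.9%), and *H2-Aa* in 57.5% (46.4% to 68.0%). Endothelial cells thinned in the same way had these genes in 0.0524% to 0.839% of cells, apart from *H2-Aa* with 17.4%. *Folr2* was found in 19.5% (11.8% to 29.4%) and *Cx3cr1* in 36.8% (26.7% to 47.8%). *Lyve1* was found in 1 of 87 cells, no more than in endothelial cells.

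Cycling genes were found in a minority of members. *Mki67* or *Top2a* had a UMI in 0 of 4, 3 of 9, and 19 of 87 macrophages by age, and at least 5 genes of the proliferation list in 0, 2, and 4. In the 20-week sum 1 cell held 61.8% of the *Mki67* UMIs and 91.7% of the *Top2a* UMIs.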

How the data were processed

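Lung cells were profiled with the 10x Genomics Chromium 3′ assay in 6 libraries. The authors deposited whole-number UMI counts per gene and cell barcode, without normalization, made with Cell Ranger against mm10 (5.0.0 for every library per the submitters' processing notes; the file headers give 5.0.0 for 8 weeks and 6.0.1 for 14 and 20 weeks). The file headers and features list 32285 genes. Barcodes were kept from 500 detected genes upward and up to 10% mitochondrial UMIs, which left 38208 of 43545. Total UMIs were 33680696 to 39839916 per WT library and 64475410 to 72655387 per TNF-Tg library. Libraries were grouped by their labels, with 3 per genotype.

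Members were chosen by the rule given above in each library, with numpy 2.4.6, scipy 1.17.1, and pandas 2.3.3. The members and the gene lists were chosen with earlier results of these data known. Doublets were kept, and Scrublet (scanpy 1.11.5, expected rate 0.8% per 1000 cells) was used for an alternative. Shares have exact Clopper-Pearson 95% intervals and were compared by a two-sided exact permutation test over libraries. Levels are CPM of UMIs summed over cells, ratios have exact conditional Poisson 95% intervals, a count of 0 was replaced by 3 UMIs in a fold, and a gene was compared with at least 50 CPM in either sum. All intervals cover counting error only. Cells were not treated as replicates. A count model of TNF-Tg against WT macrophages, and of its difference from other myeloid cells, had been planned with at least 10 members per library, and could not be made because the WT libraries held none. Since no gene could be called by a test, genes were named after the member counts were known: up to 4 genes of each list with the highest CPM, the leading genes by ratio, and *Ptprc*, *Tnf*, *Tnfrsf1a*, *Tnfrsf1b*, *Adgre1*, *Lyve1*, *Cd163*, *Folr2*, *H2-Aa*, *Cx3cr1*, *Apoe*, *Ccl2*, *Bmp2*, *Bmpr2*, and *Igfbp7*. Others were singled out after their values were seen. The fold call was tested only on simulated Poisson counts, which lack the variation among cells seen here. Sequences came from RefSeq windows on GRCm38.p6 and coordinates from GENCODE vM21. Some genes of the lists are not reported here.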

Additional observations from a re-analysis of the deposited data

How the results depend on the processing

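The share of macrophages kept its direction in all 15 alternatives, with 0 WT members in each, and p was the smallest each design allows, 0.1 with 6 libraries and 0.2 with 5, so that it says nothing about stability. The 8-week count fell to 1 when no endothelial gene was allowed, and to 2 without cells with genes of another lineage. With at least 1000 genes and at most 5% mitochondrial UMIs, 2 members remained at 8 weeks and 3 at 14 weeks. Shares over non-endothelial cells differed by 2.05 points, and the other planned or added settings with all libraries gave 0.375 to 0.549 points. Leaving out each library in turn gave mean differences of 0.108 to 0.763 percentage points, the lowest without the TNF-Tg library of 20 weeks. With age as a replicate block, added after seeing the data, the difference was 0.529 points (exact sign-flip p = 0.25, the smallest that 3 pairs allow); the replicate numbers themselves pair nothing, since each library is another pool. The planned fits of macrophage genes between genotypes, their alternatives, and the difference from other myeloid cells gave no value without WT members, and a comparison of the subset genes over libraries needs a second library with 10 members. At full depth instead of 1000 UMIs, the share of the 87 cells with a UMI was 51.7% for *Folr2*, 11.5% for *Cd163*, 72.4% for *Cx3cr1*, 73.6% for *H2-Aa*, 8.05% for *Itgax*, 83.9% for *Ptprc*, 86.2% for *Adgre1*, 93.1% for *Cd68*, and 100% for *Lyz2*, with 3 others within their intervals. With a minimum of 100 CPM, 78 genes were at least 4-fold higher and 117 lower, since fewer genes were compared. The other 5 alternatives, all added after seeing the data, gave 105 to 162 and 206 to 248. Of 37 gene levels, 9 moved by over 1.5 times in an alternative.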
